A study of Mus musculus with 6 samples.

Results

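The latent TGFβ binding proteins (LTBPs) and fibrillins are a family of large, cysteine-rich glycoproteins of the extracellular matrix, and their 6 mouse genes, *Ltbp1*, *Ltbp2*, *Ltbp3*, *Ltbp4*, *Fbn1* and *Fbn2*, were followed in fibroblasts treated with TGFβ. The genes were chosen by their symbols from the 25140 genes of the table, with the vehicle and TGFβ counts of the family already known. Their difference between the groups is therefore given below as a description without a test. All 6 passed the filter on low counts that left 14334 genes for testing.

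TGFβ is made as a precursor whose propeptide stays wrapped around the growth factor after cleavage and keeps it inactive. In most cells this latent complex is joined by disulfide bonds to an LTBP before secretion, and the LTBP anchors it in the matrix. LTBP1 and LTBP3 bind the latent complex efficiently, LTBP4 binds it less well, and LTBP2 does not bind it. Fibrillins polymerise into microfibrils, which carry LTBPs and serve as the scaffold of elastic fibres. Fibrillin-1 is the main fibrillin of adult tissue, whereas fibrillin-2 is best known from development.

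RNA was sequenced from 3 vehicle and 3 TGFβ libraries of C57BL/6 mouse fibroblasts. The labels describe primary cardiac fibroblasts of adult heart at passage 1, grown in DMEM with 25 mM glucose and 10% FBS and moved to 1% FBS at 80% confluence. After 16 h, cultures received vehicle or TGFβ at 10 ng/mL for 24 h. The results section of the study calls the same cells embryonic fibroblasts, its methods call them cardiac, and its methods give 24 h of low serum, so the origin of the cells and that interval are stated differently in the sources. No genetic change is given for these cultures, and they received no treatment apart from the medium, the vehicle and TGFβ. Values are listed in the order of the table's columns, which carry no replicate number.

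The libraries held 27851677 to 31072338 counts. Replicates differed by more than counting noise in every pair, with a chi-square per gene of 7.41 to 25.0, so none looked like a second copy of another. Fibroblast markers were abundant. In CPM, counts relative to the size of a library, 9 such genes summed to 50035 to 60227 CPM with vehicle and to 47098 to 53040 CPM with TGFβ. The sums of markers of other cells were far lower, but no marker was at 0 in all libraries. The 5 endothelial, 5 leukocyte and 5 mesothelial genes summed to at most 570, 340 and 83.7 CPM in any library. The 5 pericyte, 5 smooth muscle and 5 cardiomyocyte genes reached 255, 245 and 59.7 CPM. *Col1a1*, *Col3a1* and *Col1a2* made up most of the fibroblast sum. With vehicle, leukocyte *Lyz2* averaged 232 and endothelial *Cdh5* 200 CPM, above *Thy1* at 76.3 CPM but below the other fibroblast genes. With TGFβ, *Lyz2* at 202 CPM also lay above *Tcf21* at 147 and *Lum* at 160 CPM, and *Cdh5* at 154 CPM also lay above *Tcf21*. Of 8 known TGFβ target genes, 6 rose by edgeR's quasi-likelihood test, a count model fitted over all tested genes with p-values adjusted by the Benjamini-Hochberg method and a threshold of 0.05. The same test called 20.5% of all tested genes higher. Like the ligand, release and partner lists below, the target list was set by known role with earlier results of these data known. Among the targets, *Acta2*, encoding the smooth muscle actin of myofibroblasts, rose by a log2 fold change of 1.03 ± 0.08 (standard error, edgeR adjusted p = 6.9e-05). *Smad7* and *Tgfbi* did not pass, with log2 fold changes of 0.02 ± 0.07 and 0.19 ± 0.10 (edgeR adjusted p = 0.881 and 0.177), the first of which turned negative under another scaling. *Ctgf*, an older symbol of *Ccn2* that encodes a matricellular growth factor modulator, rose by 1.49 ± 0.09 (edgeR adjusted p = 2.0e-05).

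The 6 genes lie on 6 chromosomes (GRCm38, GENCODE M21). *Ltbp1* is at chr17:75005568-75392512 on the plus strand, *Ltbp2* at chr12:84783212-84876532 on the minus strand, *Ltbp3* at chr19:5740904-5758532 on the plus strand and *Ltbp4* at chr7:27305136-27337692 on the minus strand. *Fbn1* is at chr2:125300594-125507993 on the minus strand. The loci differ widely in size, from 17.6 kb for *Ltbp3* to 387 kb for *Ltbp1*. The longest coding sequence had 2873 codons for *Fbn1* and 2907 for *Fbn2*, each on a transcript of 65 exons. It had 1809 codons for *Ltbp2*, 1713 for *Ltbp1*, 1666 for *Ltbp4* and 1253 for *Ltbp3*, the shortest of the family. The proteins are built from related repeats. Still, no stretch of 75 bases in the longest transcript of any of the 6 genes recurred, in the same orientation, in a transcript of another gene. Their other transcripts, the opposite strand and the genome were not searched.

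Promoter sequences from RefSeq (GRCm38.p6) were used for 5 of the 6 genes, and *Fbn2* was left out of this search. The 250 bases before each start were searched on both strands for CAGAC, the SMAD half-site bound by the transcription factors downstream of TGFβ receptors. The stretches of *Ltbp2*, the member with the greatest excess with TGFβ, and of both *Ltbp1* starts, from which a long and a short protein form are made, are printed 5′ to 3′ on the gene's strand with the half-sites in capitals. The *Ltbp2* stretch ends where the GENCODE exon begins.
Ltbp2, chr12:84876533-84876741, minus strand: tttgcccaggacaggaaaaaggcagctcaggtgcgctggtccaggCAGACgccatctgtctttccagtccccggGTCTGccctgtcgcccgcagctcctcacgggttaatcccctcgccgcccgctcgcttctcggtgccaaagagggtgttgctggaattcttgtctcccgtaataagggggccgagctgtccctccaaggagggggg
Ltbp1 upstream start, chr17:75005279-75005528, plus strand: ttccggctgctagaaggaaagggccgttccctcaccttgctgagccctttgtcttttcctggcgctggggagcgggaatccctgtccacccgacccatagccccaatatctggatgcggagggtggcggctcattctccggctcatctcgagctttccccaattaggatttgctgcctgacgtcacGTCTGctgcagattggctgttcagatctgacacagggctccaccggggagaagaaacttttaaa
Ltbp1 downstream start, chr17:75178531-75178780, plus strand: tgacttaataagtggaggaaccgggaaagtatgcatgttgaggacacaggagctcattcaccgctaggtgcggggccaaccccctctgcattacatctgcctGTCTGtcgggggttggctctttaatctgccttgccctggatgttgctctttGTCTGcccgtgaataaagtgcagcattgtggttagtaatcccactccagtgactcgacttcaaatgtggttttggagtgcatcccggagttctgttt
*Ltbp2* had 2 half-sites, 201 and 172 bases before its RefSeq start. The upstream *Ltbp1* start had 1, at 60 bases, and the downstream start had 2, at 144 and 93 bases. *Ltbp3* had 1 at 54 bases, whereas *Fbn1* and the 3 starts of *Ltbp4* had 0. A GENCODE exon of *Fbn1* begins upstream of its window, so this window does not lie before the whole gene. Exons also entered windows of *Ltbp4* starts, leaving 170 and 235 bases before them. A half-site was found in 42.2% of 32851 promoters of the same length, so its presence is common. The GC box GGGCGG, found in 32.7% of promoters, occurred 2 times before *Ltbp2*, 1 time before *Fbn1* and 3 to 7 times before the *Ltbp4* starts. At least 3 occurred in 8.47% of promoters. The windows before the *Ltbp4* starts at chr7:27333663 and chr7:27333648 largely overlap and share GC boxes, so their searches are not separate. The *Ltbp2* boxes were 128 and 4 bases before the RefSeq start, the second in the exon cut from the printed stretch. A box 27 bases before 1 *Ltbp4* start also lay in an exon. The SMAD palindrome GTCTAGAC, the AP-1 site TGAGTCA, the TEAD site GGAATG, the TATA box TATAAA and the CArG box were in none of these windows. They occurred in 0.167%, 4.46%, 12.6%, 12.4% and 1.47% of all promoters. The counts of a gene sum all its transcripts, so the long and short *Ltbp1* forms could not be told apart.

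All 4 *Ltbp* genes and *Fbn1* were higher with TGFβ and *Fbn2* was lower. CPM are counts divided by the library size in units of 1e+06 reads after TMM scaling, which corrects for differences in library composition. In these bulk cultures, a change in the number of cells of a type cannot be told apart from a change in RNA per cell.

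*Ltbp2* had the greatest difference of the family. It was at 255, 211 and 224 CPM with vehicle and at 2077, 2069 and 1868 CPM with TGFβ. The lowest TGFβ library lay far above the highest vehicle library, and the means were 230.3 ± 22.6 and 2005 ± 118 CPM (SD, n = 3). This was an 8.70-fold difference, a log2 fold change of 3.12 ± 0.09 (standard error), which placed *Ltbp2* at rank 28 of 14334 genes ordered from the highest to the lowest log2 fold change.

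*Ltbp1*, the best known carrier of latent TGFβ, was at 49.8, 49.7 and 44.7 CPM with vehicle and at 161, 146 and 127 CPM with TGFβ. All 3 TGFβ libraries exceeded the vehicle libraries. They were also more spread, with a coefficient of variation of 11.7% against 6.13%. The log2 fold change was 1.59 ± 0.09, a 3.01-fold difference.

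*Ltbp4*, known for its part in elastic fibre assembly through fibulin-5, was at 241, 223 and 226 CPM with vehicle and at 449, 447 and 458 CPM with TGFβ. The TGFβ libraries lay close together, with a coefficient of variation of 1.31%. The log2 fold change was 0.97 ± 0.04, a 1.96-fold difference.

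*Ltbp3*, known for its part in bone and tooth growth, was at 388, 385 and 398 CPM with vehicle and at 478, 475 and 484 CPM with TGFβ. It had the smallest difference of the family, with a log2 fold change of 0.30 ± 0.04, but the groups did not overlap and the replicates were tight. The SD of its log2 CPM, pooled over the groups, was 0.0205, against a median of 0.0736 over 10373 genes with at least 5 CPM.

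*Fbn1* was at 3900.4, 4131 and 3684 CPM with vehicle and at 5240.5, 5765 and 4593 CPM with TGFβ. The groups were apart by the gap between 4131 and 4593 CPM, and the TGFβ libraries were spread over a wider range than the vehicle libraries. The log2 fold change was 0.41 ± 0.09, a 1.33-fold difference on the largest counts of the family. *Fbn1* overlaps *Gm9913* on the opposite strand over 2442 exonic bases. Whether counting used strand is not given in the sources used here. *Gm9913* counts were 0.206% of those of *Fbn1*, and its log2 fold change of 1.29 ± 0.17 (edgeR adjusted p = 0.00074) could not be separated from that of *Fbn1* if strand was not used.

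*Fbn2* was at 24.1, 24.2 and 26.5 CPM with vehicle and at 5.92, 6.52 and 6.59 CPM with TGFβ. The gene lies at chr18:58008623-58210487 on the minus strand. Each TGFβ library was far below each vehicle library, with 162 to 188 counts against 717 to 790. The log2 fold change was -1.97 ± 0.07, and *Fbn2* held rank 108 of 14334 genes ordered from the lowest to the highest log2 fold change. The 2 fibrillin genes thus differed in opposite directions.

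**Figure D1:**
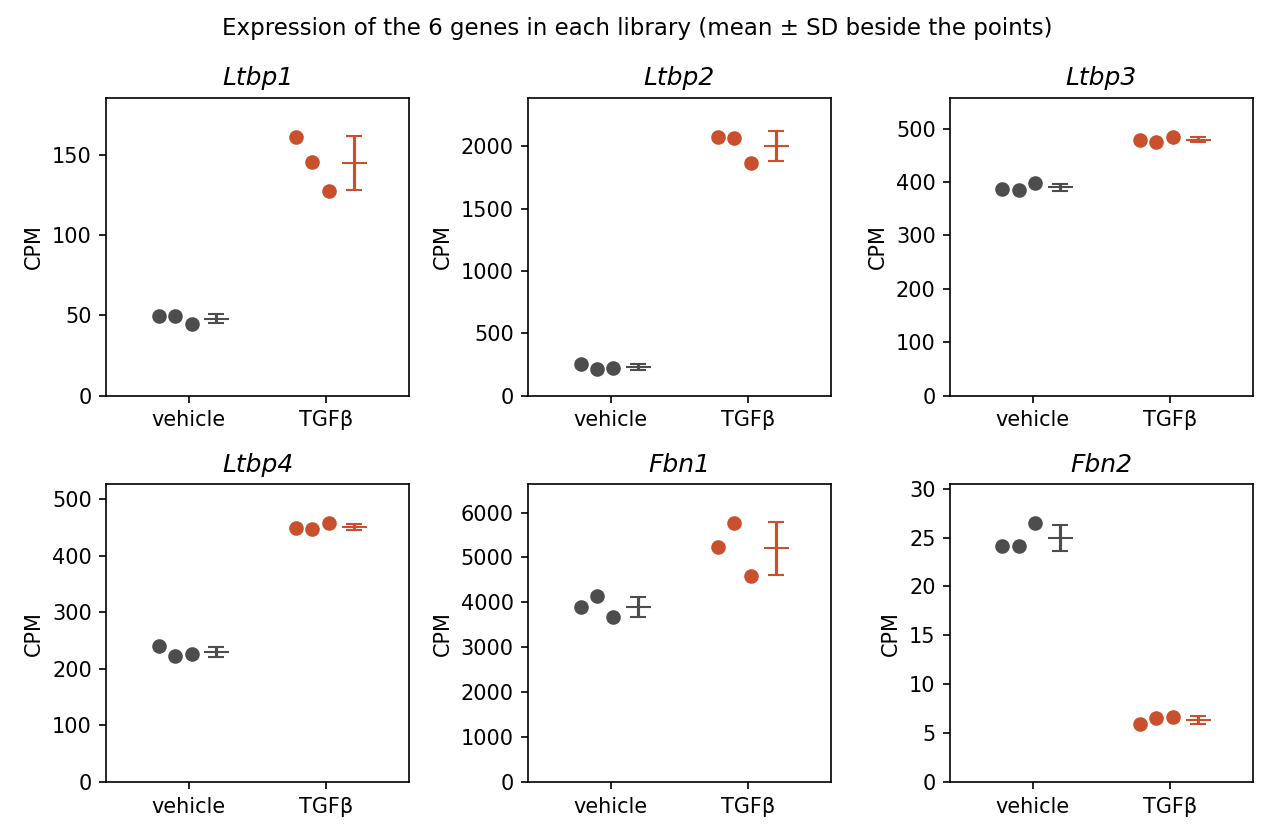
CPM (y axis, from 0, with a separate scale for each gene) of the 6 genes in the 3 vehicle and 3 TGFβ libraries. Points are libraries and bars are mean ± SD; TGFβ points lie above all vehicle points for the *Ltbp* genes and *Fbn1* and below them for *Fbn2*.

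In the edgeR fit, 6 of 6 members passed the adjusted p threshold, 5 with higher and 1 with lower counts. Of all tested genes, 40.7% passed, 20.5% with higher and 20.1% with lower counts. The CPM of the groups did not overlap for 6 of 6 members and for 53.3% of tested genes. Because the family was chosen with this contrast known, nothing is read from these counts. The median log2 fold change was 0.69 over the members and -0.0013 over all tested genes.

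Within a library the members did not all deviate in the same direction. The TGFβ library of 28641986 counts was the lowest of its group for *Ltbp1*, *Ltbp2* and *Fbn1* and the highest for *Ltbp3*, *Ltbp4* and *Fbn2*. In that library the summed endothelial markers were at 440 CPM, against 288 and 311 CPM in the other TGFβ libraries, and the leukocyte markers at 308 CPM against 207 and 220 CPM. The vehicle library of 29331999 counts was likewise the lowest of its group for *Ltbp1* and *Fbn1* and the highest for *Ltbp3* and *Fbn2*. For *Ltbp2* and *Ltbp4* it lay between the other vehicle libraries. Its summed endothelial markers were at 570 CPM, against 340 and 384 CPM in the other vehicle libraries. Its leukocyte markers were at 340 CPM against 238 and 248 CPM. The part of these cells in the members' values was not tested. Without any single library the log2 fold change of *Ltbp2* ranged from 3.06 to 3.20, that of *Ltbp1* from 1.51 to 1.67 and that of *Fbn1* from 0.33 to 0.49.

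To compare levels between genes, CPM were divided by the length of the union of a gene's exons in kb, which gives a level per length (FPKM). With vehicle, *Fbn1* had the highest level, at 322 ± 18.5 FPKM (SD, n = 3). *Ltbp3* followed at 43.0 ± 0.753, *Ltbp4* at 35.6 ± 1.42 and *Ltbp2* at 28.1 ± 2.76 FPKM, and *Ltbp1* and *Fbn2* were low at 4.49 ± 0.275 and 1.89 ± 0.102 FPKM. The ranges of neighbours in this order did not overlap. With TGFβ, *Fbn1* was still the highest at 429 ± 48.4 FPKM, but *Ltbp2* was next at 245 ± 14.5 FPKM, above *Ltbp4* at 69.8 ± 0.918 and *Ltbp3* at 52.8 ± 0.532 FPKM. *Ltbp1* at 13.6 ± 1.58 and *Fbn2* at 0.480 ± 0.0279 FPKM kept their places at the end. With the length of the longest transcript in place of the exon union, *Ltbp4* and *Ltbp3* had 83.8 ± 1.101 and 83.6 ± 0.841 FPKM with TGFβ, so their order in that group rests on the length used.

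The family as a whole took a larger part of the RNA with TGFβ. The 6 genes held 0.468% to 0.509% of all counts in the vehicle libraries and 0.750% to 0.861% in the TGFβ libraries. Their summed FPKM was 435 ± 17.2 and 810.4 ± 61.1, a ratio of 1.86, and the sum of the 4 *Ltbp* genes was 111 ± 4.22 and 381 ± 14.5, a ratio of 3.43. The composition of the family also differed. *Fbn1* held 74.0% ± 1.51 of the summed FPKM with vehicle and 52.8% ± 2.07 with TGFβ, whereas *Ltbp2* held 6.48% ± 0.689 and 30.3% ± 0.859. The share of *Ltbp3* was 9.90% ± 0.573 and 6.55% ± 0.574, although its own level was higher with TGFβ. The share of *Ltbp4* overlapped between the groups, at 8.19% ± 0.441 with vehicle and 8.66% ± 0.786 with TGFβ. Among the *Ltbp* genes alone, *Ltbp2* went from 25.3% ± 1.51 to 64.2% ± 1.39 and *Ltbp3* from 38.7% ± 1.56 to 13.9% ± 0.676. The ratio of *Fbn1* to *Fbn2* was 171 ± 17.8 with vehicle and 896 ± 118 with TGFβ.

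**Figure D2:**
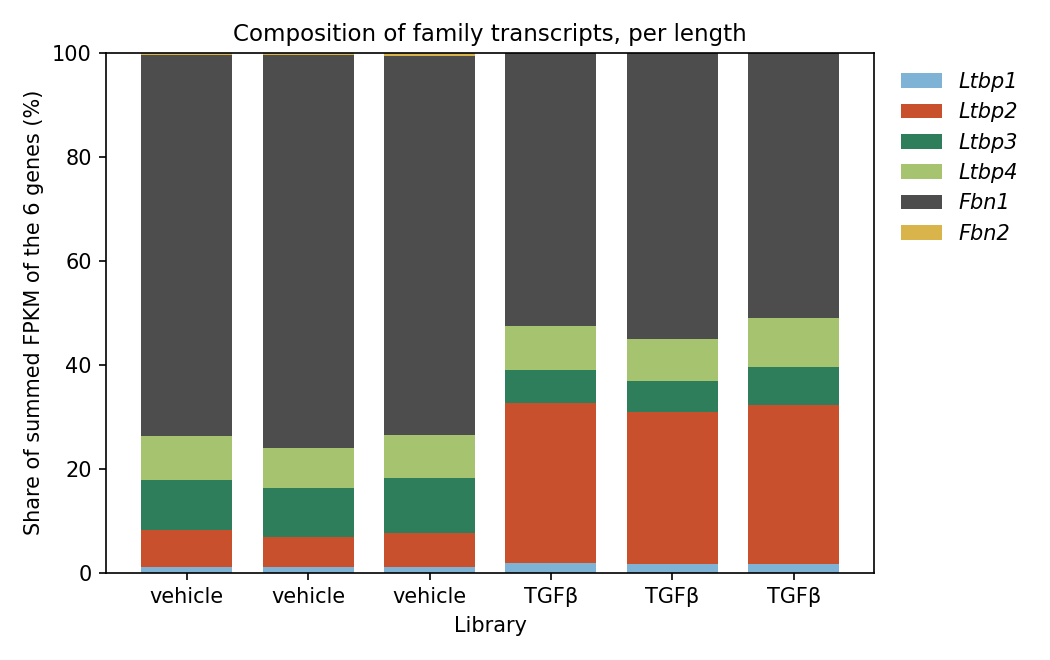
Share (%) of each gene in the summed FPKM of the 6 genes, 1 bar for each of the 3 vehicle and 3 TGFβ libraries. The *Ltbp2* share is 5.74% to 7.10% in vehicle bars and 29.3% to 30.8% in TGFβ bars, and the *Fbn1* share is 73.0% to 75.7% and 50.9% to 55.0%.

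The genes of the TGFβ ligands, whose latent forms the LTBPs carry, were next compared. All 3 changed by the edgeR test, which called 40.7% of all tested genes. *Tgfb1* was at 96.3, 101 and 136 CPM with vehicle and at 157, 164 and 244 CPM with TGFβ, and rose by a log2 fold change of 0.76 ± 0.19 (edgeR adjusted p = 0.015). Its highest values stood apart, in the vehicle library of 29331999 counts and the TGFβ library of 28641986 counts. These libraries also had the highest summed endothelial and leukocyte markers of their groups, and a part of those cells in *Tgfb1* was not tested. Without any single library the log2 fold change of *Tgfb1* ranged from 0.53 to 0.94. *Tgfb1* no longer passed once the vehicle library of 31072338 counts (edgeR adjusted p = 0.052) or that of 29296570 counts (edgeR adjusted p = 0.054) was left out. *Tgfb3* was at 155, 148 and 135 CPM with vehicle and at 234, 227 and 207 CPM with TGFβ, and rose by 0.61 ± 0.07 (edgeR adjusted p = 0.00037). *Tgfb2* was at 108, 91.9 and 88.0 CPM with vehicle and at 77.9, 67.4 and 65.8 CPM with TGFβ, and fell by 0.45 on the log2 scale (standard error 0.09, edgeR adjusted p = 0.0063). *Tgfb3* was at 43.2 ± 3.07 FPKM with vehicle and 65.8 ± 4.14 FPKM with TGFβ. *Tgfb1* was below it at 22.0 ± 4.37 and 37.4 ± 9.50 FPKM by the exon union, and at 43.2 ± 8.56 and 73.2 ± 18.6 FPKM by the longest transcript, so the order of these ligand genes rests on the length used.

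The summed FPKM of *Ltbp1*, *Ltbp3* and *Ltbp4*, the members that bind latent TGFβ, was set beside that of the ligand genes. The binding genes summed to 84.6, 81.7 and 83.1 FPKM with vehicle and to 137, 135 and 136 FPKM with TGFβ. The ligand genes summed to 83.6, 79.6 and 82.1 FPKM with vehicle and to 114, 111 and 121 FPKM with TGFβ. Both sums were higher with TGFβ in every library. The binding sum gives *Ltbp4*, whose product binds the latent complex less well, the same weight as *Ltbp1* and *Ltbp3*. Most of the rise of this sum lay in *Ltbp4*, with means of 35.6 FPKM with vehicle and 69.8 FPKM with TGFβ. The means were 43.0 and 52.8 FPKM for *Ltbp3* and 4.49 and 13.6 FPKM for *Ltbp1*. The ratio below therefore does not describe the efficient binders alone. The ratio of binding to ligand transcripts was 1.02 ± 0.00805 with vehicle and 1.18 ± 0.0483 with TGFβ (SD, n = 3). With the length of the longest transcript it was 1.12 ± 0.0439 and 1.24 ± 0.109, and the groups overlapped, so the difference in this ratio depends on the length used. These are transcripts, and the TGFβ protein added to the medium is not part of them.

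**Figure D3:**
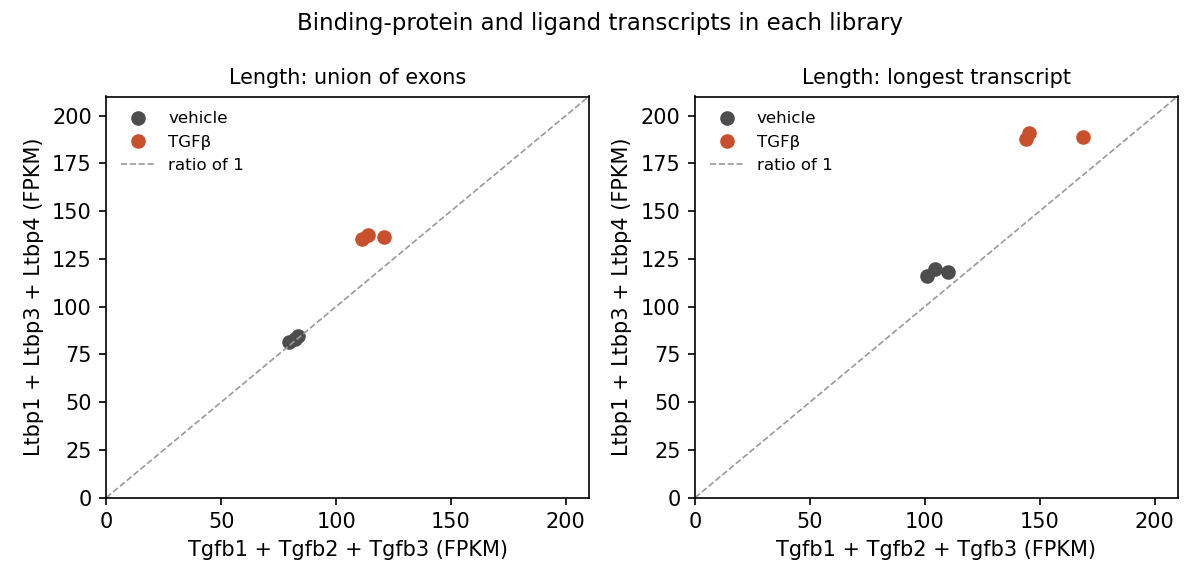
Summed FPKM of *Ltbp1*, *Ltbp3* and *Ltbp4* (y axis) against summed FPKM of *Tgfb1*, *Tgfb2* and *Tgfb3* (x axis) in the 3 vehicle and 3 TGFβ libraries, with lengths from the exon union (left) and the longest transcript (right). The dashed line marks a ratio of 1, and TGFβ libraries lie higher and farther right, at a mean ratio of 1.18 on the left and 1.24 on the right.

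Genes that process or release the latent complex were partly changed. Of 14 such genes 13 were tested, 5 rose and 2 fell, and the median log2 fold change was 0.11, beside -0.0013 and 40.7% passing over all tested genes. *Itgb6*, the beta subunit of an epithelial integrin, had too few counts to be tested, at 4 to 16 per library. *Thbs1*, encoding thrombospondin-1, a matricellular protein that can activate latent TGFβ, was at 1462, 1153 and 1549 CPM with vehicle and at 5035, 4269.7 and 5149.9 CPM with TGFβ. It rose by a log2 fold change of 1.80 ± 0.12 (edgeR adjusted p = 4.2e-05), and no TGFβ library came near a vehicle library. *Furin*, the protease that cleaves the TGFβ precursor, rose by 0.49 ± 0.06 (edgeR adjusted p = 0.00045). The integrin subunit genes *Itgav*, *Itgb5* and *Itgb1*, whose products form receptors for the latent complex, rose by 0.39 ± 0.06, 0.46 ± 0.06 and 0.21 ± 0.05 (edgeR adjusted p = 0.0024, 0.00082 and 0.0094). *Itgb8* and *Itgb3*, subunits of the other such receptors, had log2 fold changes of -0.17 ± 0.13 and 0.06 ± 0.19 (edgeR adjusted p = 0.324 and 0.824). *Mmp2*, a gelatinase, fell by 0.33 on the log2 scale (edgeR adjusted p = 0.0058). *Mmp9*, a further gelatinase, fell by 0.98 (edgeR adjusted p = 0.040) from only 5.40 to 2.72 CPM, and its call was lost without any 1 of 4 libraries (edgeR adjusted p = 0.085 to 0.123) and with limma-voom (adjusted p = 0.068). The 4 libraries were the vehicle libraries of 29296570 and 29331999 counts and the TGFβ libraries of 27851677 and 28894151 counts. *Lrrc32*, encoding GARP, a membrane anchor that can take the place of an LTBP, had a log2 fold change of 0.19 ± 0.08 (edgeR adjusted p = 0.084), which passed without the TGFβ library of 27851677 counts (edgeR adjusted p = 0.041).

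Among 21 genes of microfibril and elastic fibre partners, 10 rose, 3 fell and 8 did not pass, with a median log2 fold change of 0.12. Over all tested genes 20.5% were higher and 20.1% lower by the same test. The ADAMTS-like genes, whose products bind fibrillin-1 microfibrils, did not move as a group. *Adamtsl2*, whose product also binds LTBP1, was at 92.0, 81.2 and 86.5 CPM with vehicle and at 246, 244 and 242 CPM with TGFβ, and rose by 1.49 ± 0.05 (edgeR adjusted p = 3.9e-06). *Adamtsl4* fell by 1.00 on the log2 scale (edgeR adjusted p = 0.0016), and *Thsd4*, which encodes ADAMTSL6, had a log2 fold change of -0.92 ± 0.42 (edgeR adjusted p = 0.120). *Thsd4* passed without the vehicle library of 29296570 counts (edgeR adjusted p = 0.031). Of the related proteases, *Adamts6* rose by 1.80 ± 0.09 (edgeR adjusted p = 1.0e-05) from 7.08 to 24.7 CPM. *Adamts10* had a log2 fold change of 0.12 ± 0.06 (edgeR adjusted p = 0.153), and passed without the vehicle library of 29296570 counts (edgeR adjusted p = 0.042). *Adamts17* had -0.69 ± 0.39 (edgeR adjusted p = 0.206).

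*Eln*, encoding elastin, was at 1734, 1122 and 1479.8 CPM with vehicle and at 2739.9, 1922 and 3817 CPM with TGFβ, and rose by 0.97 ± 0.25 (edgeR adjusted p = 0.017). Its TGFβ libraries were widely spread, and *Eln* did not pass once the vehicle library of 29296570 counts was left out (edgeR adjusted p = 0.055). *Lox*, the lysyl oxidase that cross-links elastin and collagen, rose by 0.96 ± 0.07 (edgeR adjusted p = 6.2e-05). *Loxl1*, a related oxidase, rose by 0.17 ± 0.05 (edgeR adjusted p = 0.022), a call that was lost without any 1 of 4 libraries (edgeR adjusted p = 0.054 to 0.088). These were the vehicle libraries of 31072338 and 29296570 counts and the TGFβ libraries of 28894151 and 28641986 counts. *Fbln5*, whose protein binds LTBP2 and LTBP4, rose by 0.47 ± 0.06 (edgeR adjusted p = 0.0007), and *Mfap4* by 0.89 ± 0.08 (edgeR adjusted p = 0.00013). The crosslinking enzyme gene *Tgm2* rose by 0.25 ± 0.05 (edgeR adjusted p = 0.008), and *Vcan*, a proteoglycan that binds fibrillin, by 1.36 ± 0.12 (edgeR adjusted p = 0.00012).

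The fibulins and microfibril-associated glycoproteins were split. *Mfap5*, encoding MAGP2, rose by 0.67 ± 0.10 (edgeR adjusted p = 0.0012), whereas *Mfap2*, encoding the related MAGP1, fell by 0.78 on the log2 scale (edgeR adjusted p = 0.0094). *Fbln1*, encoding fibulin-1 of elastic fibres and basement membranes, was at 209, 256 and 315 CPM with vehicle and at 73.4, 78.7 and 111 CPM with TGFβ, and fell by 1.57 on the log2 scale (edgeR adjusted p = 0.00055). *Fbln2* and *Efemp2* were at -0.02 ± 0.07 and -0.03 ± 0.05 (edgeR adjusted p = 0.802 and 0.690). *Fn1*, encoding the fibronectin that LTBP1 needs for its deposition, was at 0.04 ± 0.10 (edgeR adjusted p = 0.786). *Emilin1* and *Hspg2* were at -0.03 ± 0.06 and 0.03 ± 0.12 (edgeR adjusted p = 0.707 and 0.867). The signs of these 5 genes changed when single libraries were left out.

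**Figure D4:**
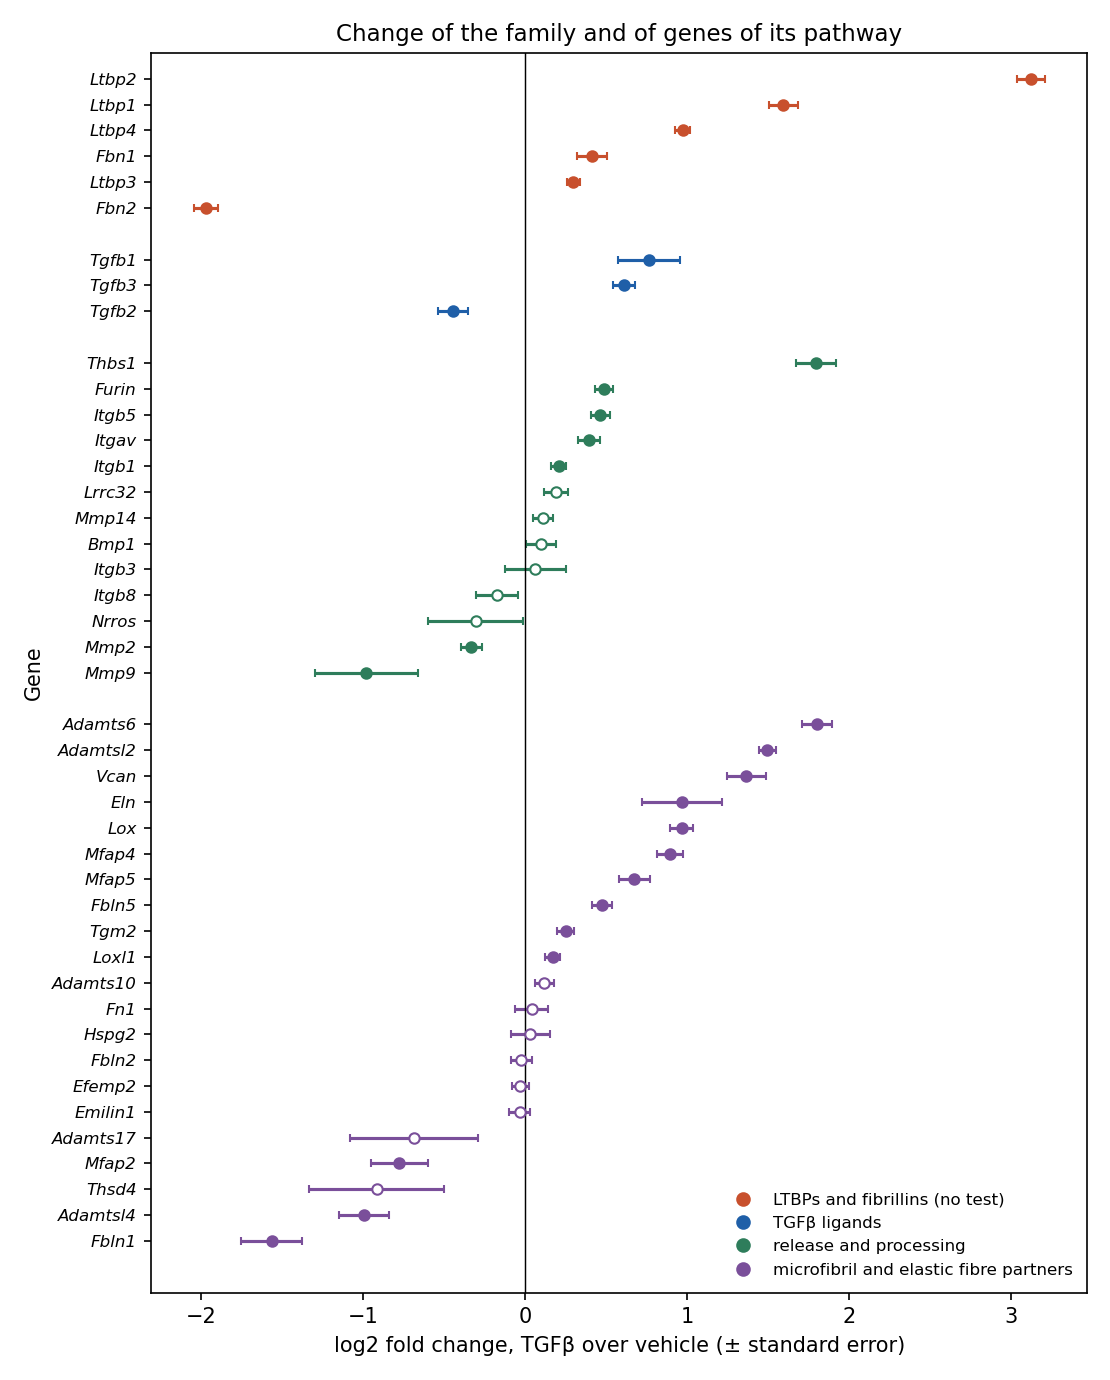
Log2 fold change of TGFβ over vehicle ± standard error (x axis) for the 6 members and for tested genes of the ligand, release and microfibril lists (y axis). Filled points of the lists passed an edgeR adjusted p of 0.05 and open points did not, and the members carry no test; *Ltbp2* lies farthest right at 3.12 and *Fbn2* farthest left at -1.97.

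For each member, the genes with the most similar profile were found as the smallest Euclidean distance between log2 CPM profiles centred on their means over the 6 libraries, among 10370 other genes whose CPM averaged at least 5 over the 6 libraries. The nearest to *Ltbp4* were *Zdhhc16*, *Lox* and *Tmsb4x*, at distances of 0.0615, 0.129 and 0.132. *Lox*, a listed microfibril partner, had a log2 fold change of 0.96, near the 0.97 of *Ltbp4*. The nearest to *Ltbp3* were *Cct2*, *Lrrc59* and *Smurf1* at 0.0348 to 0.0382, and to *Fbn1* *Tstd3*, *Alg10b* and *Pik3r3* at 0.0830 to 0.117. The nearest to *Ltbp1* were *Csdc2*, *Ddah1* and *Ckb* at 0.212 to 0.276, and to *Fbn2* *Xdh*, *Rcan2* and *Epas1* at 0.168 to 0.215. *Ltbp2* had the most distant neighbours, *Ccl17*, *Olfm2* and *Col8a2* at 0.401 to 0.621. These 3 genes met that level only through the TGFβ libraries, with vehicle means of 1.72, 1.704 and 3.49 CPM. These distances describe 6 libraries and include the contrast for which the members were chosen. A near neighbour therefore has a similar log2 fold change by construction, and no link between genes is read from it.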

How the data were processed

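RNA-seq was analysed in 3 vehicle and 3 TGFβ cultures, which the study calls biological replicates. Libraries were stranded and poly(A)-selected, with single-end reads of 75 bases; the submitters' processing notes name mm10 and DESeq2. The aligner, counter, annotation and use of strand in counting are not given in the sources used here. The authors deposited raw read counts per gene for each library, without normalization, as whole numbers. The table also holds the authors' own comparison (mean, log2 fold change, standard error, statistic, p-values), which was not used. The number of unused columns of per-sample values was 0. ATAC-seq was not analysed here.

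Counts of 25140 genes were filtered (filterByExpr), scaled by TMM and tested with edgeR 4.0.16 (R 4.3.3, glmQLFit and glmQLFTest), with Benjamini-Hochberg adjustment over 14334 genes. The standard error is the log2 fold change over the root of the F statistic. Lengths came from GENCODE M21, which matched 25086 gene IDs. Alternatives were DESeq2 1.42.0, limma-voom (limma 3.58.1), other scalings, filters and lengths, and leaving out each library. The fits were tested on simulated data. The named genes are the members, all genes of lists set by known role, and 3 profile neighbours of each member with at least 5 CPM (pseudocount 0.5 CPM). Members and lists were chosen with earlier results of these data known. Some listed or neighbouring genes are not reported here.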

Additional observations from a re-analysis of the deposited data

How the results depend on the processing

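The number of genes passing an adjusted p of 0.05 was 5828, and 4489 to 5481 without any single library. At an adjusted p of 0.01 it was 3595. The directions of all 6 members held under the alternatives run, and *Ltbp3* had a log2 fold change of 0.28 with upper quartile factors. With the longest transcript as length, mean FPKM with vehicle and TGFβ were 7.20 and 21.7 for *Ltbp1*, 34.0 and 296 for *Ltbp2*, 68.1 and 83.6 for *Ltbp3*, 42.7 and 83.8 for *Ltbp4*, and 2.26 and 0.575 for *Fbn2*. Family shares then became 1.498% and 2.36% for *Ltbp1*, 14.2% and 9.12% for *Ltbp3*, 67.9% and 47.1% for *Fbn1*, 32.2% for *Ltbp2* with TGFβ and 8.90% for *Ltbp4* with vehicle. The ratio of binding to ligand transcripts was 1.12 and 1.24 with that length, an alternative chosen after seeing the data. These shifts follow from the lengths alone.

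Genes that did not pass changed sign without single libraries, with log2 fold changes of -0.15 to 0.24 for *Itgb3*, -0.068 to 0.014 for *Fbln2*, -0.088 to 0.0081 for *Efemp2*, -0.091 to 0.016 for *Emilin1*, -0.029 to 0.13 for *Fn1*, -0.063 to 0.16 for *Hspg2* and -0.041 to 0.074 for *Smad7*, which also had -0.0054 with upper quartile factors. The cause was not tested. No paired analysis was possible because the columns carry no replicate numbers. With 3 libraries a group, small differences in genes of few counts, such as *Mmp9*, are poorly resolved.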

Other observations

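Of 9 fibroblast markers, 7 fell with TGFβ by the edgeR test and 0 rose, beside 20.1% of all tested genes called lower, and their summed CPM overlapped between the groups. *Pdgfra*, encoding a receptor of fibroblasts, fell by 1.37 on the log2 scale (edgeR adjusted p = 1.8e-05). The study names this gene an early indicator of fibroblast activation. By qPCR in embryonic fibroblasts that carried a conditional *Mcu* allele and a control virus, it reports more *Pdgfra* mRNA after TGFβ, the opposite direction. For the sequenced samples it lists *Pdgfra* among genes with more accessible chromatin after TGFβ. It states that mRNA at such genes went up or down as known for myofibroblasts, and its text gives no direction for *Pdgfra*. *Tcf21*, a transcription factor of the cardiac fibroblast lineage, fell by 1.05 (edgeR adjusted p = 3.9e-06) and *Lum*, encoding the proteoglycan lumican, by 0.96 (edgeR adjusted p = 0.0023). *Col1a1* and *Col1a2* had log2 fold changes of 0.23 ± 0.08 and 0.13 ± 0.07 (edgeR adjusted p = 0.055 and 0.196). Of 5 smooth muscle genes 3 rose, beside 20.5% of all tested genes called higher, with *Cnn1*, a contractile regulator, at 1.86 ± 0.15 (edgeR adjusted p = 7.5e-05). *Lmod1* rose by 0.56 ± 0.17 (edgeR adjusted p = 0.034) with groups that overlapped, and *Myh11* and *Des* did not pass. Of all tested genes, 40.7% passed in either direction. Of 5 pericyte markers 1 rose, 1 fell and 3 (*Rgs5*, *Kcnj8* and *Abcc9*) did not pass. *Cspg4* rose by 1.45 ± 0.18 (edgeR adjusted p = 0.00061) and *Notch3* fell by 1.85 (edgeR adjusted p = 1.6e-05). By edgeR's test 0 of 5 endothelial, 0 of 5 leukocyte, 0 of 5 mesothelial and 0 of 2 tested cardiomyocyte genes passed, with 0, 0, 1 and 1 of them at an unadjusted p under 0.05.

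In each group the library in the third count column had the highest summed endothelial markers, at 570 CPM in the vehicle group and 440 CPM in the TGFβ group. The first had the highest mesothelial markers, at 83.7 and 41.6 CPM. Whether the columns of the groups were made in pairs is not given in the sources used here.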
